A study of Mus musculus with 56 samples.

Results

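The genes described here are 10 genes of cytokine signalling: the feedback genes Socs1, Socs2, Socs3 and Cish, and the receptor chain genes Ifngr1, Ifngr2, Il4ra, Il13ra1, Il10ra and Il10rb. They were found by gene name, and each had 1 row in both deposited tables, among 52636 genes in the heart table and 57010 in the table of bone, muscle and skin. The cells were monocytes and macrophages sorted from injured tissue and profiled in bulk, in 56 libraries that form 16 groups. The comparison asks how these cells differ after regulatory T cells have been depleted from the mouse.

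In the depleted arm, 10-week-old Foxp3(DTR/GFP) mice, in which Foxp3-expressing regulatory T cells carry the diphtheria toxin receptor and a green fluorescent protein, received diphtheria toxin. In the control arm, wild-type C57BL/6J mice received the same toxin (20 ng/g, into the peritoneum), so that both arms share the toxin and differ in genotype as well as in depletion, which cannot be told apart. Each mouse had 1 injury: myocardial infarction in the heart, a cranial defect in bone, a volumetric muscle loss defect or a full-thickness skin punch. Heart and muscle have 3 depleted and 3 control libraries on each of days 4 and 7, skin has 4 and 4 on each of those days, and bone has 5 and 5 on day 7 and 3 and 3 on day 10. The series text names days 4 and 7, while the labels of bone give days 7 and 10. Toxin was continued for 1 week after injury, so that the day 10 bone cells were taken after it had ended. The labels give neither the markers of the sort, nor whether animals were pooled, nor which libraries share an animal, so the spread behind each p-value may be technical.

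Library totals ran between 2642452 and 9788811 counts in heart, 2318268 and 5835113 in bone, 3439692 and 6397434 in muscle, and 3013776 and 5392932 in skin. All 14 macrophage and monocyte marker genes were detected in every comparison, and their summed level lay between 9510 and 45400 CPM (counts scaled to library size, within each table, by edgeR's TMM method). Markers of other cells were present as well, and the main ones are given beside the results. Foxp3, the gene that marks the depleted cells, had 0 counts in all heart libraries. Elsewhere it was close to the limit of detection. It had 7 counts over the depleted and 22 over the control libraries of bone on day 7, where the median control had 0, and 3 over each arm on day 10. In muscle it had 2 over the depleted libraries and 0 over the controls on day 4, and 1 over the depleted libraries and 4 over the controls on day 7. In skin it had 1 over the depleted and 6 over the control libraries on day 4, and 3 over the depleted and 28 over the control libraries on day 7. In bulk samples, fewer cells of a type and less RNA per cell cannot be told apart.

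Cytokines such as interferon gamma, interleukin 4 and interleukin 10 bind paired receptor chains, whose attached Janus kinases phosphorylate STAT transcription factors. The STATs switch on SOCS genes, whose protein products bind the receptors or kinases and end the signal, so that SOCS transcripts serve as a record of recent signalling. In macrophages, Socs1 is known as the feedback inhibitor of interferon gamma and interleukin 4 signalling, Socs3 as the STAT3-induced inhibitor of interleukin 6 family receptors that use gp130, and Cish and Socs2 as classic STAT5-induced genes.

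The promoters of 3 feedback genes, Socs1, Cish and Socs3, are shown because they hold letters that such factors are known to bind. RefSeq promoter sequences (GRCm38.p6) were at hand for 7 of the 10 genes, that is all but Socs2, Il10ra and Il10rb. The starts used are those of RefSeq. For Cish and Socs3 the whole window printed here lies inside the gene span given below, which comes from another annotation with an earlier start. The search covered 250 bases before to 50 after each annotated start, on both strands, for TTCNNNGAA (the GAS element bound by most STATs), TTCNNNNGAA (the wider spacing of the same letters that STAT6 favours) and GAAANNGAA (the core of the interferon-stimulated element bound by IRF factors). The runs below reach from 200 bases before the start to 30 after it, are written 5′ to 3′ on the gene's strand, and have the matches in capitals. They are Socs1 (chr16:10785507-10785736, minus strand), Cish (chr9:107296459-107296688, plus strand) and Socs3 (chr11:117969337-117969566, minus strand).
Socs1: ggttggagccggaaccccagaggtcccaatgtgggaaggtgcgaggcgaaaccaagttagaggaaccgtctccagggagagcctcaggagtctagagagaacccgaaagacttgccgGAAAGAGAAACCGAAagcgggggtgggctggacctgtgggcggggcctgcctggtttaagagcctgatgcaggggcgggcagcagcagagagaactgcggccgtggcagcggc
Cish: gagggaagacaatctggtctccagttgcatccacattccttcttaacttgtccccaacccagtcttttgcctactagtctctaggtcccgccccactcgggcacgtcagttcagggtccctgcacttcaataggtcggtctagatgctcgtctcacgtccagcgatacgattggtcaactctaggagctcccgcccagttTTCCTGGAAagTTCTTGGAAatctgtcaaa
Socs3: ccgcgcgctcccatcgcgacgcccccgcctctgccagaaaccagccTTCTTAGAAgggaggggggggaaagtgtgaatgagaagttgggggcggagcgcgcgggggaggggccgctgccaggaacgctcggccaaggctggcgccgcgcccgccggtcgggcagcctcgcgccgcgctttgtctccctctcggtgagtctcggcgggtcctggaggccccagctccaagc

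Socs1 held 2 matches to the interferon element core that share 3 letters, GAAAGAGAA at position -83 and GAAACCGAA at position -77, where 1 is the first base from the start and -1 the base before it. Cish held 2 GAS matches, TTCCTGGAA at position 1 and TTCTTGGAA at position 12, and Socs3 held 1, TTCTTAGAA at position -154. Of the receptor genes, Ifngr2 held TTCCCGGGAA of the wider spacing at position -91, and Ifngr1, Il4ra and Il13ra1 had no match in these windows. Among all 32851 promoters of the same length, 8.3% held the GAS letters, 6.95% the wider form and 8.56% the interferon core, and 2 or more matches were held by 0.457% for GAS and 0.624% for the interferon core. These counts include overlapping matches, and a match describes letters, not a bound site.

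**Figure D1:**
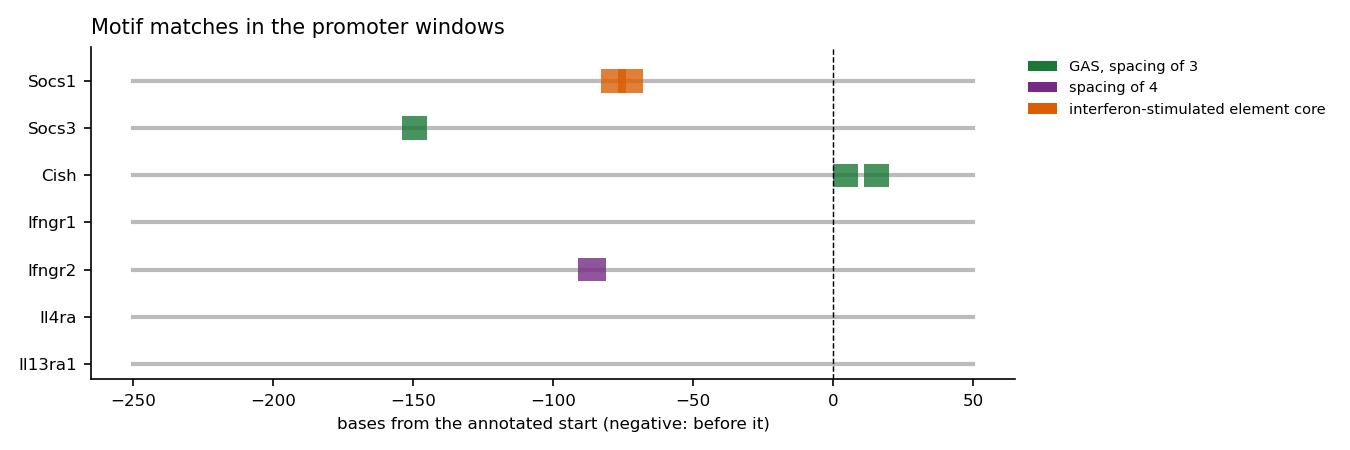
Position of motif matches in the promoter windows of the 7 genes with a RefSeq promoter, in bases from the RefSeq start. Negative values lie before it, and colours give the 3 motifs. Socs1 has 2 interferon core matches at positions -83 and -77, Cish has 2 GAS matches just after the start, Socs3 has 1 GAS match and Ifngr2 has 1 match of the wider spacing.

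Socs1, Socs2 and Cish rose with depletion in muscle on day 7 and in skin, and receptor genes fell, most of them in bone. Over the 8 comparisons of depleted with control libraries, the 4 feedback genes gave 32 log2 changes, of which 23 were positive and 9 negative; 11 passed the test as higher and 1 as lower. The 6 receptor genes gave 48 changes, of which 5 were positive and 43 negative, and the 11 that passed were all lower. The test was edgeR's quasi-likelihood test. A gene is called here at a Benjamini-Hochberg adjusted p below 0.05 over all genes tested in the tissue, and all 10 genes passed the filter on low counts in every tissue. The 2 days of a tissue were fitted together and the 8 comparisons do not share libraries.

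The count of called genes followed the tissue and day. In heart on day 4, 1 of the 10 rose and 1 fell, where 4.25% of all genes tested rose and 6.85% fell. In heart on day 7, 0 were called in either direction, beside 1.58% of all genes higher and 1.56% lower; 3 of the 10 had an unadjusted p below 0.05 and DESeq2 and limma-voom called 0. In bone on day 7, 1 rose and 6 fell, beside 11.0% and 12.6% of all genes, and on day 10, 2 were called, both lower, beside 8.95% of all genes higher and 8.22% lower. In muscle on day 4, 0 were called, beside 0.0542% of all genes higher and 0.101% lower; 2 had an unadjusted p below 0.05 and DESeq2 and limma-voom called 0. In muscle on day 7, 3 rose and 2 fell, beside 4.67% and 3.92%. In skin, 3 were called on day 4, all higher, beside 2.12% of all genes higher and 1.45% lower, and 3 rose and 1 fell on day 7, beside 2.95% and 3.27%. The median log2 change of the feedback genes was 1.52 in muscle on day 7, 1.46 in skin on day 4 and 1.26 in skin on day 7, and that of the receptor genes was -0.54 in bone on day 7. The median of all genes tested lay between -0.02 and 0 in the 8 comparisons.

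**Figure D2:**
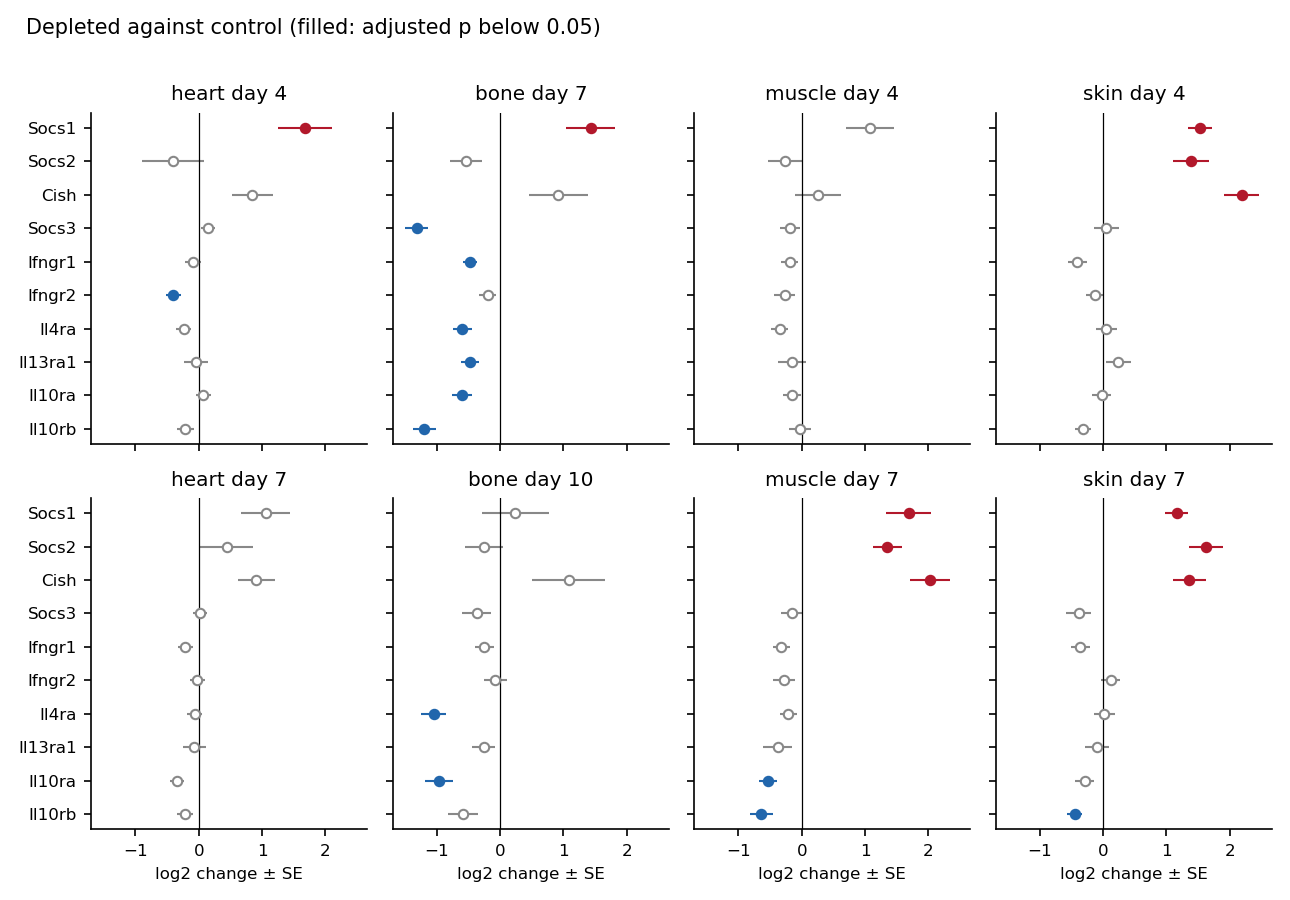
Log2 change, depleted against control, with its standard error, for the 10 genes in the 8 comparisons of tissue and day; filled points passed the test. Socs1, Socs2 and Cish lie to the right in muscle on day 7 and in skin on both days, and most receptor genes lie to the left in bone.

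Socs1 (ENSMUSG00000038037, chromosome 16, 10782240 to 10785536, minus strand, GRCm38) was higher in the depleted mean in all 8 comparisons and rose in 5 of them. Day 4 skin had 46.7, 60.2, 61.3 and 55.7 CPM of Socs1 in depleted libraries, against 21.6, 14.5, 22.4 and 18.1 CPM in controls. Day 7 skin had 59.2, 62.9, 42.3 and 66 CPM in depleted libraries, against 24.7, 31.9, 27 and 20 CPM in controls. Depleted muscle libraries of day 7 had 44.9, 67.2 and 70.9 CPM, against 18.1, 15.6 and 23.2 CPM in controls. The groups did not overlap in any of these. The log2 changes were 1.53 in skin on day 4 (SE 0.19, adjusted p = 2.77e-05), 1.16 in skin on day 7 (SE 0.18, adjusted p = 0.000211) and 1.69 in muscle on day 7 (SE 0.36, adjusted p = 0.00726).

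In bone and heart, the rise of Socs1 was uneven between libraries. Depleted bone libraries of day 7 had 19.2, 31.4, 100, 47.4 and 19.9 CPM of Socs1, against 22.8, 16.3, 17.8, 12.3 and 10.4 CPM in controls, so that the third depleted library stood above the rest and the groups overlapped (log2 change 1.43, SE 0.39, adjusted p = 0.0148). Without that library the change was 0.86 (adjusted p = 0.0219), and the call held in 21 of 24 alternatives. It was lost with Rn18s-rs5, a ribosomal RNA gene, as a covariate (log2 change 1.08, adjusted p = 0.326), with no filter on low counts (adjusted p = 0.0537) and with the bone day 7 libraries fitted alone (adjusted p = 0.0563). The same library had the highest summed level of T and NK cell markers, 403 CPM, in a group that spanned 187 to 403 CPM, against 84.2 to 132 CPM in controls; 10 of 12 tested markers of that list rose, none of the 18 was at 0 in all of these libraries, and their part in the Socs1 value was not tested. On day 10 of bone, Socs1 averaged 22.5 ± 4.05 CPM over depleted libraries and 19.3 ± 4.62 CPM over controls (SD, n = 3 each) and was not called.

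In heart on day 4, Socs1 stood at 20, 21 and 60.5 CPM in depleted libraries, against 8.65, 9.87 and 14.1 CPM in controls. The groups did not overlap, and the depleted library called F3 in the deposited table, at 60.5 CPM, carried much of the mean. The log2 change was 1.68 (SE 0.43, adjusted p = 0.0282), and without F3 it was 0.92 (adjusted p = 0.041). Leaving out any of the 3 controls of that day took the call away (adjusted p = 0.059, 0.0975 and 0.11). F3 also had the highest summed T and NK cell markers, 70.2 CPM beside 31.7 and 22.9 CPM in the other depleted libraries and 5.96 to 13.9 CPM in controls; 4 of 8 tested markers of that list rose, none of 18 was at 0 throughout, and their part was not tested. Ribosomal protein genes took 2.52% of counts in these depleted libraries on average, against 6.67% in the controls. On day 7 of heart, Socs1 stood at 27.4, 25.3 and 17.1 CPM in depleted libraries, against 9.1, 13 and 11.5 CPM in controls, without overlap. That change of 1.06 missed the threshold (SE 0.39, adjusted p = 0.173) and passed it when F3 of day 4 was left out of the shared fit (adjusted p = 0.00665). Depleted muscle libraries of day 4 had 39.3, 11.7 and 12.5 CPM, against 8.07, 10.9 and 11 CPM in controls, and Socs1 was not called (log2 change 1.08, SE 0.38, adjusted p = 0.427).

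Cish (ENSMUSG00000032578, chromosome 9, 107296026 to 107302784, plus strand), which encodes CIS, the founding SOCS family member, was higher in the depleted mean in all 8 comparisons and rose in 3 of them. Depleted skin libraries of day 4 had 50.2, 78.5, 77.4 and 83.3 CPM of Cish, against 17.7, 19.6, 13 and 12.8 CPM in controls. Depleted muscle libraries of day 7 had 55.1, 87.3 and 81.8 CPM, against 22.9, 17 and 14.6 CPM in controls. Depleted and control libraries did not overlap in either. Those of skin on day 7 had 80.5, 110, 33 and 77 CPM, against 24.4, 36.1, 28 and 28.8 CPM in controls. Here the third depleted library fell within the controls. The log2 changes were 2.19 in skin on day 4 (SE 0.28, adjusted p = 7.43e-05), 2.03 in muscle on day 7 (SE 0.32, adjusted p = 0.000541) and 1.36 in skin on day 7 (SE 0.26, adjusted p = 0.00255).

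In bone and heart, Cish was low and was not called. Day 7 bone had 11, 11.2, 20.9, 16.8 and 5.61 CPM in depleted libraries, against 12, 7.55, 4.21, 9.31 and 0 CPM in controls; the control at 0 could hold up to 1.3 CPM by the limit of 3 counts, and counting error alone is covered by that limit. Day 10 bone had 26.6, 23.3 and 47.1 CPM in depleted libraries, against 14.5, 11.7 and 20.2 CPM in controls, without overlap (log2 change 1.08, SE 0.57, adjusted p = 0.206). In heart the changes were 0.85 on day 4 (SE 0.32, adjusted p = 0.0931) and 0.91 on day 7 (SE 0.29, adjusted p = 0.0912). Without the day 7 heart library FDG3 both passed, at 0.86 (adjusted p = 0.0498) and 1.14 (adjusted p = 0.0276). The annotation places Gm17040 and Gm17041 on the opposite strand of Cish, and neither reached more than 3 counts in any group.

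Socs2 (ENSMUSG00000020027, chromosome 10, 95385362 to 95417180, minus strand), known as the inhibitor of growth hormone signalling, rose in muscle on day 7 and in skin on both days, and was not called in heart or bone. Day 7 muscle had 71.3, 80.1 and 72.2 CPM of Socs2 in depleted libraries, against 32.9, 27.9 and 26.8 CPM in controls. Day 7 skin had 86, 106, 79.6 and 58.3 CPM in depleted libraries, against 20.1, 39.3, 17.2 and 28.6 CPM in controls. Day 4 skin had 24.1, 68, 48.9 and 52.7 CPM in depleted libraries, against 18.2, 18.7, 19.8 and 15.9 CPM in controls. No depleted library overlapped the controls in these 3 comparisons, and the first depleted skin library of day 4 lay nearest to them. The log2 changes were 1.35 in muscle on day 7 (SE 0.23, adjusted p = 0.00107), 1.63 in skin on day 7 (SE 0.27, adjusted p = 0.000521) and 1.39 in skin on day 4 (SE 0.28, adjusted p = 0.00676). Its level in bone on day 7 was 9.28 ± 3.71 CPM over depleted libraries and 13.3 ± 2.51 CPM over controls (SD, n = 5 each), which was not called (log2 change -0.54, SE 0.25, adjusted p = 0.122).

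Markers of basophils, eosinophils and mast cells had a higher mean sum in depleted muscle on day 7 and in depleted skin, where these 3 genes rose. The summed level of the 15 markers was 226, 516 and 388 CPM in depleted muscle libraries on day 7, against 21.7 to 28.1 CPM in controls, and 5 of 6 tested markers rose, with Prg2, an eosinophil granule protein gene, at a log2 change of 6.14. The sum in skin on day 4 was 211, 352, 729 and 685 CPM in depleted libraries, against 37.9 to 122 CPM in controls, with 5 of 13 tested markers higher. In skin on day 7 it was 446, 573, 215 and 475 CPM, against 125 to 243 CPM, with 4 of 13 higher and 4 lower. There the median log2 change of the tested markers was -0.79, and Mcpt8 alone averaged 323 CPM in depleted libraries, against 19.9 CPM in controls. Bone had the largest sums, 365 to 2860 CPM over depleted libraries and 201 to 493 CPM over controls on day 7, with 6 of 12 tested markers higher, and Cish and Socs2 were not called there. None of the 15 markers was at 0 throughout any of these comparisons. In depleted muscle libraries of day 7, the order of Cish was the order of this sum, and the third depleted skin library of day 7 was the lowest in both. In bone on day 7 the fifth depleted library had the highest sum and the lowest Cish. Neutrophil markers also summed to 1110 to 2930 CPM in depleted muscle libraries on day 7, against 199 to 243 CPM in controls, with 7 of 12 tested markers higher. In skin on day 4 they summed to 644 to 800 CPM, against 350 to 601 CPM, with 1 of 13 tested higher. In skin on day 7 they summed to 348 to 1920 CPM, against 1110 to 1920 CPM, with 2 of 13 higher and 1 lower. The part of either cell class in the feedback genes was not tested.

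Socs3 (ENSMUSG00000053113, chromosome 11, 117966079 to 117970047, minus strand) went the other way and fell in 1 comparison. Day 7 bone had 38.3, 40, 41.1, 31 and 23 CPM of Socs3 in depleted libraries, against 122, 69.8, 87.1, 84.1 and 67.8 CPM in controls. Every depleted library lay below every control (log2 change -1.32, SE 0.18, adjusted p = 1.73e-05). By day 10 of bone it averaged 67.2 ± 13.8 CPM over depleted libraries and 87.9 ± 4.46 CPM over controls (SD, n = 3 each), a change of -0.37 that was not called (adjusted p = 0.275). Depleted skin libraries of day 7 had 126, 128, 263 and 138 CPM, against 213, 191, 258 and 209 CPM in controls. The third depleted library stood above all controls and the other depleted libraries below them all; the change was -0.39 with it (adjusted p = 0.318) and -0.71 without it (adjusted p = 0.00629). In heart, in muscle and in skin on day 4, the change of Socs3 lay between -0.19 and 0.14.

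The 22 early response and dissociation genes, which tissue handling is known to induce, were lower in several comparisons, with Socs3 called in 1 of them. They summed to 2270 to 3280 CPM in depleted bone libraries on day 7, against 5240 to 7210 CPM in controls, and 15 were called, all lower. Among skin libraries of day 7 they summed to 5590 to 9000 CPM in depleted libraries, with the third the highest, against 10200 to 13200 CPM in controls, and 16 were called, all lower. On day 10 of bone 13 fell and 2 rose, on day 7 of heart 7 were called and on day 7 of muscle 6, all lower, and Socs3 was not called there. That skin library also gave 6.19% of its counts to the ribosomal RNA gene Rn18s-rs5, the highest of its group, whose lowest was 1.47%. The part of tissue handling in the Socs3 values was not tested.

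**Figure D3:**
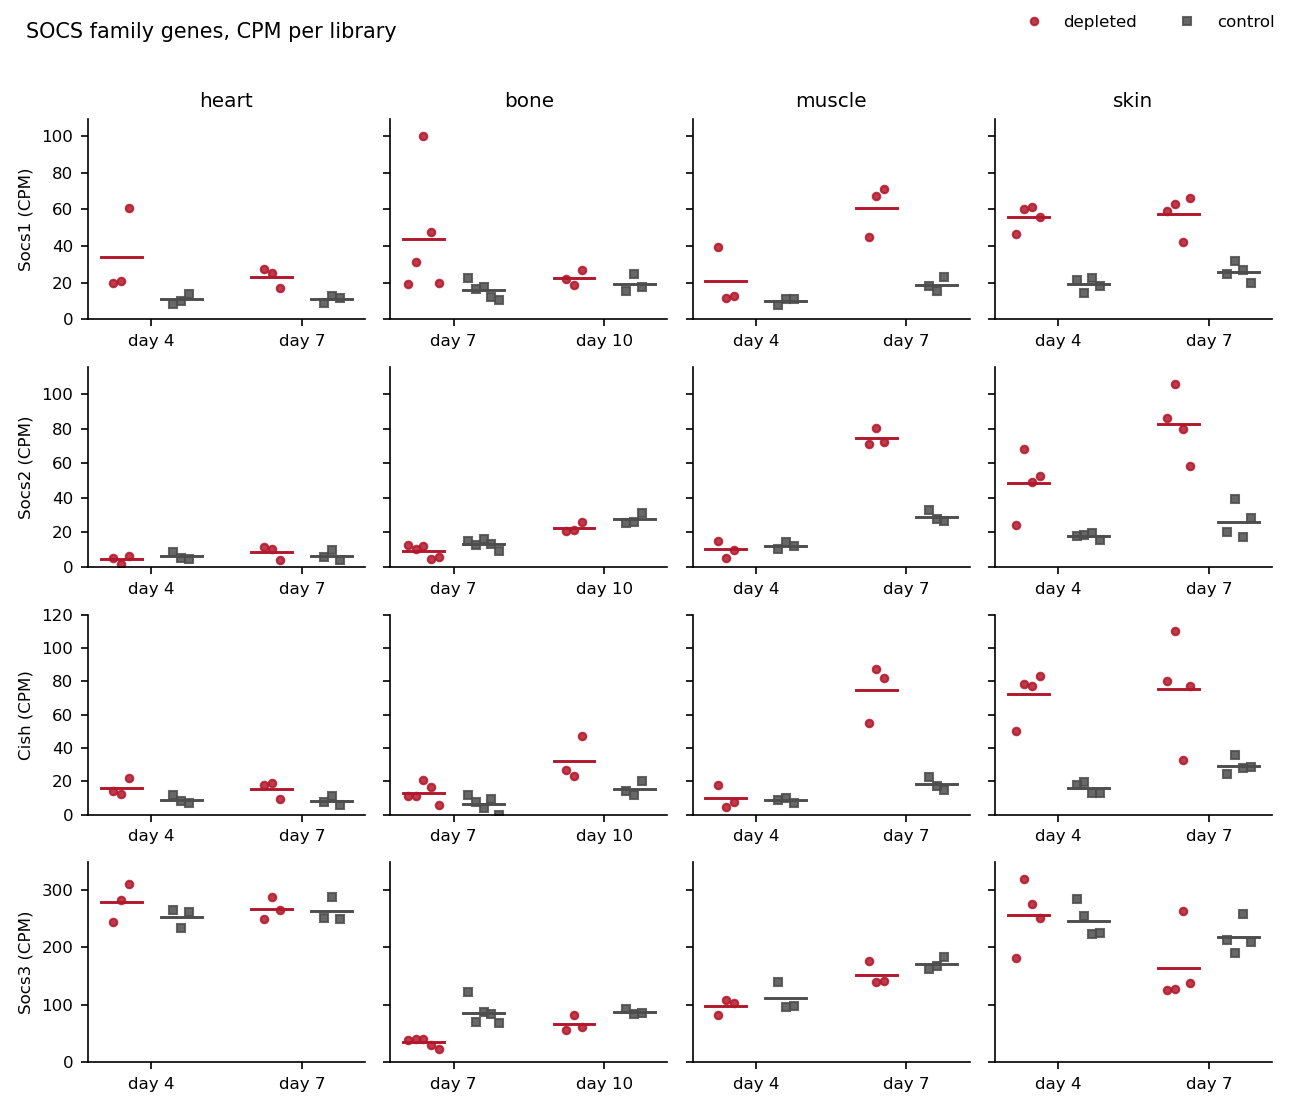
Level of Socs1, Socs2, Socs3 and Cish in every library (CPM, scaled within each table) by tissue, day and arm, with depleted libraries left of controls and a bar at each group mean. Depleted libraries of skin and of muscle on day 7 stand above the controls for Socs1 and Socs2, and depleted bone libraries on day 7 stand below the controls for Socs3.

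Of the 11 calls among receptor chain genes, 7 were in bone. Of all genes tested in bone, 12.6% were lower on day 7 and 8.22% on day 10. In the other comparisons this share lay between 0.101% and 6.85%. Ifngr1 (ENSMUSG00000020009, chromosome 10, 19591949 to 19610229, plus strand), the ligand-binding chain of the interferon gamma receptor, had 251, 319, 302, 321 and 326 CPM in depleted bone libraries on day 7, against 392, 356, 466, 374 and 514 CPM in controls. The groups did not overlap (log2 change -0.48, SE 0.11, adjusted p = 0.00363). Its change was negative in all 8 comparisons, between -0.48 and -0.09, and only that of bone on day 7 was called. Day 7 skin had 234, 257, 382 and 253 CPM in depleted libraries, against 401, 294, 393 and 378 CPM in controls. The third depleted library lay among the controls; with it the change was -0.36 (adjusted p = 0.181) and without it -0.54 (adjusted p = 0.0156). Ifngr2 (ENSMUSG00000022965, chromosome 16, 91547072 to 91565623, plus strand), the signalling chain of the same receptor, had 147, 154 and 161 CPM in depleted heart libraries on day 4, against 237, 185 and 189 CPM in controls. It fell there by 0.40 on the log2 scale (SE 0.12, adjusted p = 0.0379), the call was lost when any of 6 heart libraries was left out (adjusted p between 0.0571 and 0.206), and in the other 7 comparisons its change lay between -0.28 and 0.12.

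Il4ra (ENSMUSG00000030748, chromosome 7, 125552120 to 125579474, plus strand), the chain shared by the interleukin 4 and 13 receptors, fell on both days of bone. On day 7 it had 53.7, 54.4, 85.6, 65.2 and 61.7 CPM in depleted libraries, against 89.5, 82.7, 88.4, 125 and 97 CPM in controls. On day 10 it had 46.7, 41.9 and 52.8 CPM in depleted libraries, against 99.7, 83.1 and 112 CPM in controls. The groups overlapped by the third depleted library on day 7 and did not overlap on day 10. The changes were -0.60 on day 7 (SE 0.15, adjusted p = 0.00565) and -1.05 on day 10 (SE 0.20, adjusted p = 0.00157). Outside bone its change lay between -0.35 and 0.05. Il13ra1 (ENSMUSG00000017057, chromosome X, 36112110 to 36171259, plus strand), which joins Il4ra in the type II receptor, had 19, 24.1, 19.7, 22.9 and 23.9 CPM in depleted bone libraries on day 7, against 33.2, 24.5, 29.2, 32.6 and 31.7 CPM in controls. All depleted libraries lay below all controls, by a narrow gap at the second control (log2 change -0.48, SE 0.14, adjusted p = 0.0169).

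Both interleukin 10 receptor genes fell in more than 1 tissue. Il10ra (ENSMUSG00000032089, chromosome 9, 45253837 to 45269149, minus strand), the ligand-specific chain, had 39.4, 23.6, 34.2, 30.6 and 21.6 CPM in depleted bone libraries on day 7, against 51.2, 43.5, 38.9, 49.9 and 41.7 CPM in controls. On day 10 of bone it had 18.1, 22 and 19.3 CPM in depleted libraries, against 41.8, 40 and 35 CPM in controls. Day 7 muscle had 47.5, 50.4 and 52.9 CPM in depleted libraries, against 63.6, 68.5 and 85.7 CPM in controls. The groups were apart on day 10 of bone and in muscle, and the first depleted library overlapped the controls on day 7 of bone. The changes were -0.60 (SE 0.16, adjusted p = 0.0101) in bone on day 7, -0.97 (SE 0.22, adjusted p = 0.00624) on day 10 and -0.53 (SE 0.14, adjusted p = 0.0286) in muscle. The muscle call was lost without any of the 3 depleted libraries or the third control (adjusted p between 0.0516 and 0.151).

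Il10rb (ENSMUSG00000022969, chromosome 16, 91406164 to 91425834, plus strand), the chain that the interleukin 10 receptor shares with those of interleukin 22 and the lambda interferons, had a negative change in all 8 comparisons. Day 7 bone had 40.6, 36.8, 57.2, 47.9 and 35.1 CPM in depleted libraries, against 132, 108, 92.3, 83.5 and 79.6 CPM in controls, without overlap (log2 change -1.20, SE 0.18, adjusted p = 6.74e-05). Day 7 skin had 88.3, 81.2, 87.9 and 85.2 CPM in depleted libraries, against 118, 102, 128 and 125 CPM in controls (log2 change -0.45, SE 0.12, adjusted p = 0.0243). Day 7 muscle had 86.1, 78.3 and 59 CPM in depleted libraries, against 108, 111 and 128 CPM in controls (log2 change -0.64, SE 0.18, adjusted p = 0.0334). Depleted libraries lay below controls in all 3, and the skin and muscle calls were each lost when 1 of 5 libraries was left out (adjusted p between 0.057 and 0.0763 in skin, and between 0.0509 and 0.161 in muscle).

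The deposited values of Il10rb are uncertain outside heart, because Gm21970 overlaps it on the same strand. All 44 bone, muscle and skin libraries had a fractional value for Il10rb, and Gm21970 averaged 55.2 ± 8.77 CPM in depleted and 107 ± 12.1 CPM in control bone libraries on day 7 (SD, n = 5 each), while it had 0 counts in heart. With the counts of both genes added, a choice made after seeing the data, the change was -1.07 in bone on day 7 (adjusted p = 2.13e-05), -0.55 in bone on day 10 (adjusted p = 0.0495), -0.58 in muscle on day 7 (adjusted p = 0.0222) and -0.44 in skin on day 7 (adjusted p = 0.0225). Il10rb alone on day 10 of bone changed by -0.59 without passing (adjusted p = 0.0955), and passed without the first control, which was the lowest at 57.1 CPM (log2 change -0.82, adjusted p = 0.025). The genes annotated over Il4ra and Il10ra on the other strand, Gm44876 and Gm20612, had at most 3 counts in any group.

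Macrophage and monocyte markers moved in bone together with the receptor genes. Their summed level was 10500 to 15100 CPM in depleted libraries on day 7, against 14100 to 25300 CPM in controls, and 10 of 14 fell and 1 rose. On day 10 it was 9510 to 12100 CPM, against 14100 to 15200 CPM, with 7 lower and 2 higher. Lyz2, the lysozyme gene of these cells, fell on day 7 by 0.94 on the log2 scale, and Ly6c2, a marker of inflammatory monocytes, rose by 1.25. Neutrophil markers summed to 9370 to 29100 CPM in depleted bone libraries on day 7, against 5960 to 13900 CPM in controls, with 7 of 15 higher, and on day 10 to 18100 to 32800 CPM, against 5310 to 9890 CPM, with 8 of 15 higher. Dendritic cell markers, 10 genes of which none was at 0 throughout, summed to 12.6 to 24.8 CPM in depleted libraries of day 7, against 44.7 to 74.8 CPM in controls, and 2 of 3 tested fell. On day 10 they summed to 24.3 to 41.4 CPM, against 100 to 163 CPM, and 2 of 3 tested fell; Cd209a, a lectin gene of monocyte-derived dendritic cells, changed by -2.59 on day 7 and -3.64 on day 10. In muscle on day 7, where Il10ra and Il10rb fell, the same sum was 49.6 to 66.1 CPM in depleted libraries, against 111 to 146 CPM in controls, and 1 of 4 tested fell. This sum was also lower where neither Il10ra nor Il10rb was called. It was 14.1 to 17.5 CPM against 32.7 to 53.4 CPM in muscle on day 4, and 13.4 to 25.6 CPM against 44.8 to 50.1 CPM in heart on day 4. In heart on day 7 and in skin on both days the ranges overlapped. Fibroblast and mural cell markers, 12 genes with none at 0, summed to 142 to 1460 CPM in depleted bone libraries on day 7, against 981 to 3570 CPM in controls, with 2 of 11 tested lower, and to 1830 to 2180 CPM on day 10, against 3060 to 6150 CPM. Rn18s-rs5 took 4.93% to 10.4% of counts in depleted bone libraries on day 7, against 1.42% to 7.76% in controls, and 6.7% to 9.5% against 1.71% to 2.61% on day 10. With its level as a covariate, 4 of the 7 bone calls of day 7 passed (Socs3, Ifngr1, Il4ra and Il10rb), and neither call of day 10. With the covariate, the changes no longer called were 1.08 for Socs1, -0.39 for Il13ra1 and -0.61 for Il10ra on day 7, and -1.26 for Il4ra (adjusted p = 0.0606) and -0.97 for Il10ra (adjusted p = 0.178) on day 10. The share of Rn18s-rs5 did not overlap between the arms on day 10, so that fit can hardly tell it from depletion there. The part of the cell makeup in the receptor genes was not tested.

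**Figure D4:**
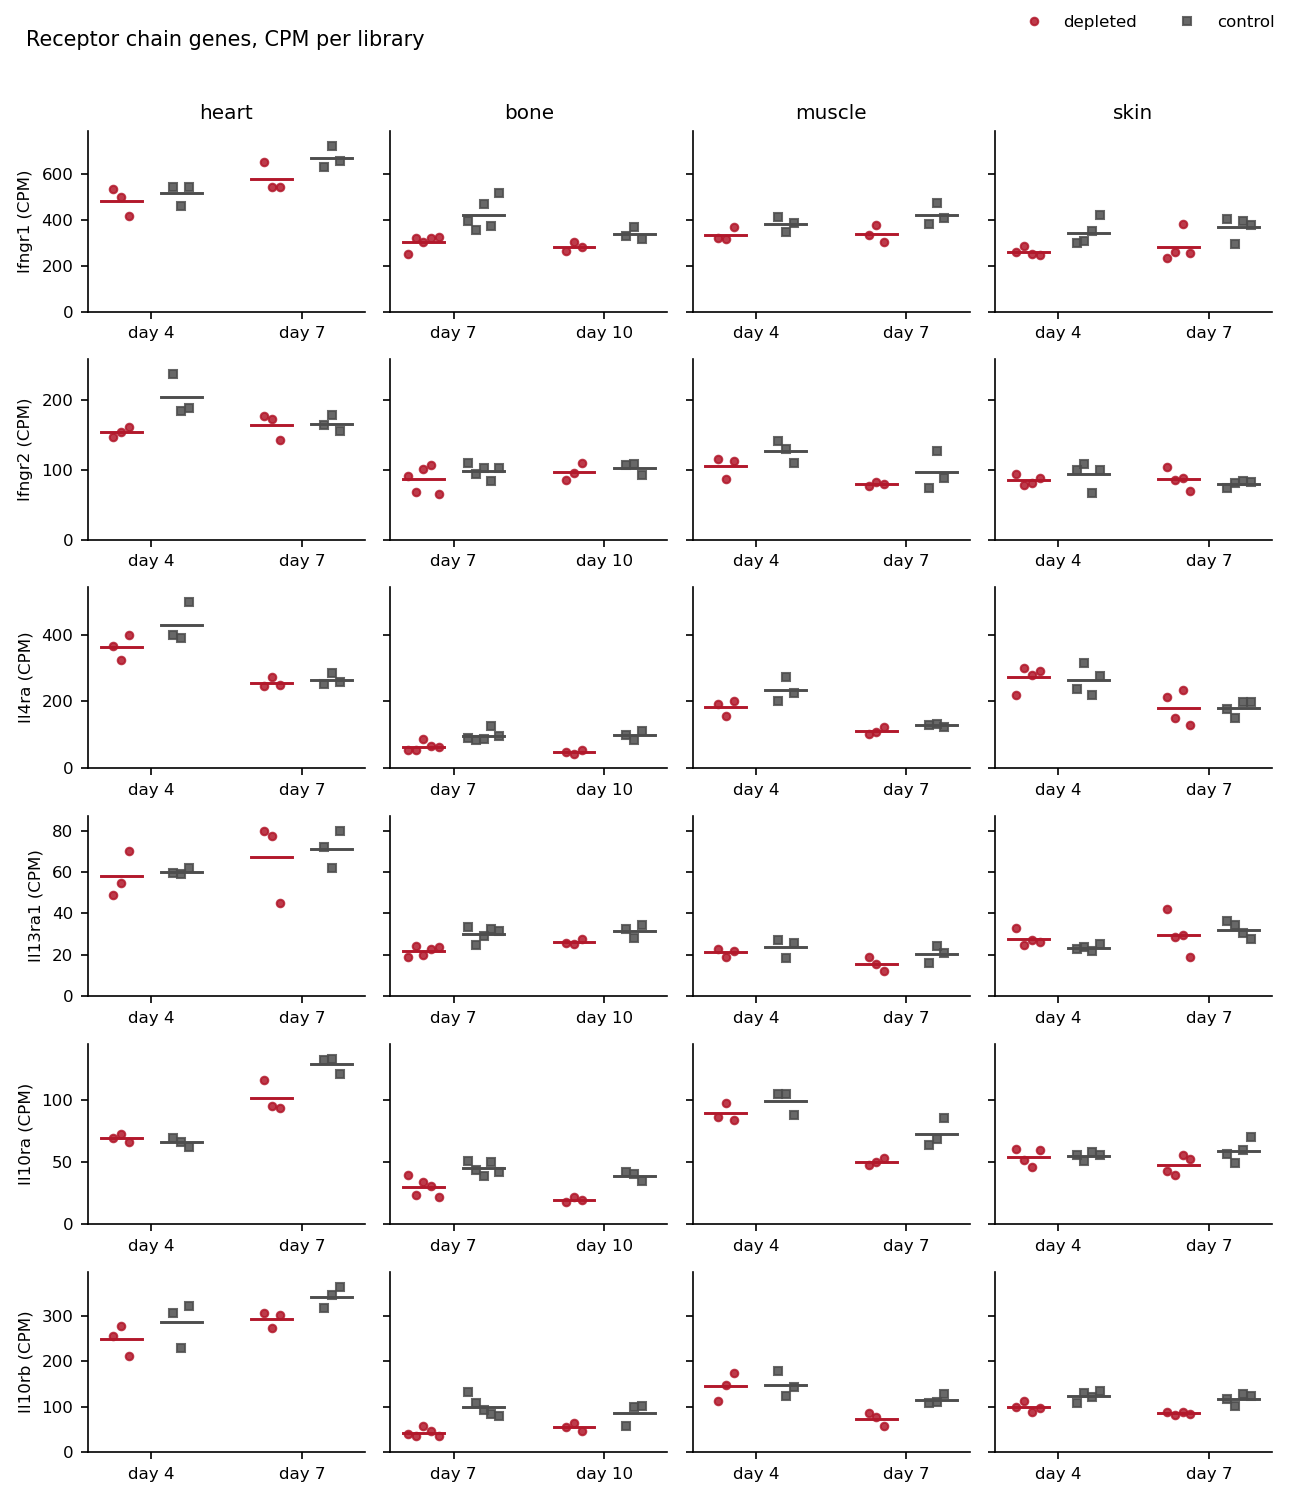
Level of the 6 receptor chain genes in every library (CPM, scaled within each table) by tissue, day and arm, with depleted libraries left of controls and a bar at each group mean. In bone on day 7, every depleted library lies below every control for Ifngr1, Il13ra1 and Il10rb.

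Of the ligand genes of these receptors, Il4 rose in 4 comparisons: in skin on day 4 it had 34, 56.4, 122 and 137 CPM in depleted libraries, against 6.51, 8.46, 3.09 and 0.354 CPM in controls (log2 change 4.22, SE 0.77, adjusted p = 0.00953). Day 7 muscle had 15, 41.9 and 35.8 CPM in depleted libraries, against 3.91, 1.64 and 2.97 CPM in controls (log2 change 3.43, SE 0.53, adjusted p = 0.00055). In both, every depleted library lay above every control. It also rose in bone, where its change was 4.15 on day 7 (SE 0.75, adjusted p = 0.000384) and 4.45 on day 10 (SE 0.79, adjusted p = 0.000873). Control bone libraries had 0 to 0.87 CPM on day 7 and 0.378 to 0.779 CPM on day 10, so these fitted changes depend on the small count that the fit adds. Depleted bone libraries had 1.25 to 8.42 CPM on day 7 and 9.48 to 14.7 CPM on day 10. In skin on day 7, the depleted libraries had 28, 64.9, 11.3 and 61.4 CPM of Il4, against 31.9, 43.1, 14.7 and 13.8 CPM in controls, and the gene was not called (adjusted p = 0.664) while Cish, Socs1 and Socs2 were. Il13 passed the filter in skin alone, where it had 10.4, 15.3, 61.9 and 74.7 CPM in depleted libraries on day 4, against 0.261, 0.604, 0 and 0 CPM in controls (adjusted p = 0.00189).

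Il10, whose product represses macrophage activation through the receptor above, fell in 4 comparisons. The changes were -1.88 in bone on day 7 (SE 0.55, adjusted p = 0.0155), -2.61 in bone on day 10 (SE 0.77, adjusted p = 0.0241), -1.60 in muscle on day 7 (SE 0.40, adjusted p = 0.0151) and -1.91 in skin on day 7 (SE 0.41, adjusted p = 0.00541). In skin on day 7 it had 1.17, 0.998, 4.28 and 4.8 CPM in depleted libraries, against 7.79, 11.2, 12.6 and 13.1 CPM in controls. Ifng was too low to test. It had counts in 18 of 56 libraries, 13 of 28 depleted and 5 of 28 control ones, and reached 1.81 CPM at most. A library with 0 counts could hold up to 0.287 to 1.3 CPM, depending on its depth.

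Known target genes of the receptors were then counted, in lists that share no gene with the 10. Of the interferon gamma targets, 16 of 19 rose in bone on day 7, 15 of 20 in skin on day 4, 17 of 20 in skin on day 7, 7 of 19 in muscle on day 7 and 8 of 19 in heart on day 4, and every call among these was higher. In bone on day 10, 4 of them rose and 1 fell, and in heart on day 7, 2 rose. In muscle on day 4, 0 of 19 were called. The median log2 change of these targets was 1.59 in bone on day 7 and 1.38 in skin on day 7. Of all genes tested, 11.0% rose in bone on day 7, 2.12% in skin on day 4 and 2.95% in skin on day 7. The share was 4.67% in muscle on day 7, 4.25% in heart on day 4 and 1.58% in heart on day 7. Psmb9, an immunoproteasome subunit gene, rose by 1.74 in bone on day 7 (SE 0.14, adjusted p = 6.41e-08), and Gbp2, a guanylate-binding protein gene, rose by 2.88 in skin on day 7 (SE 0.24, adjusted p = 2.22e-07). Of 20 interleukin 4 and STAT6 targets, 14 were called in muscle on day 7, all higher, with a median of 1.69. In skin on day 7, 13 rose and 2 fell, and on day 4, 7 were called, all higher. In muscle on day 4, 0 of the 20 were called. In bone, 2 of them rose and 6 fell on day 7, beside 11.0% of all genes higher and 12.6% lower, and 4 rose and 5 fell on day 10, beside 8.95% and 8.22%, while in heart 3 were called on day 4 and 7 on day 7, all higher. Chil3, which encodes a chitinase-like protein of alternatively activated macrophages, rose by 5.22 in muscle on day 7 (SE 0.27, adjusted p = 4.78e-09), and Pdcd1lg2, the PD-L2 gene, by 3.48 in skin on day 7 (SE 0.35, adjusted p = 1.55e-06).

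Of 16 interleukin 10, interleukin 6 and STAT3 targets, 5 were called in bone on day 7 and 4 in skin on day 7, all lower. In bone on day 10, 1 rose and 5 fell, in muscle on day 7, 4 rose and 1 fell, and in skin on day 4, 2 were called, both higher. In muscle on day 4, 0 of the 16 were called. In heart, 1 rose and 2 fell on day 4, and 1 was called on day 7, lower. Of all genes tested in heart, 4.25% rose and 6.85% fell on day 4, and 1.58% rose and 1.56% fell on day 7. The shares were 4.67% higher and 3.92% lower in muscle on day 7, 2.12% higher in skin on day 4 and 3.27% lower in skin on day 7. Junb, an AP-1 gene, changed by -1.03 in bone on day 7 (SE 0.16, adjusted p = 7.52e-05), and Zfp36, an mRNA decay factor gene, by -0.95 (SE 0.15, adjusted p = 6.88e-05). Both are also quick to respond to tissue handling. Of 10 STAT5 targets, 4 rose in muscle on day 7 and 2 each in skin on days 4 and 7, and each of these calls was higher; in bone on day 7, 1 rose and 2 fell, and the 2 called in heart on day 4 and the 1 in bone on day 10 were lower. The counts of STAT5 targets in bone are near the shares over all genes, 11.0% higher and 12.6% lower on day 7 and 8.22% lower on day 10. In muscle on day 4 and in heart on day 7, 0 of the 10 STAT5 targets were called.

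Other components of the pathway were counted as well. Of the other 4 SOCS family genes, Socs6 rose in skin on day 7 (log2 change 0.68, SE 0.19, adjusted p = 0.0314), and no other call was made among those tested in the 8 comparisons. Of 4 Janus kinase genes, Jak2, the kinase of the interferon gamma and GM-CSF receptors, was the only 1 called. It rose in bone on day 7 (log2 change 0.83, adjusted p = 0.0258) and day 10 (1.36, adjusted p = 0.00942). It also rose by 0.90 in muscle on day 7 (adjusted p = 0.0434). In skin it rose by 1.16 on day 4 (adjusted p = 0.0142) and 1.17 on day 7 (adjusted p = 0.00715). The median log2 change of the 4 kinase genes lay between -0.11 and 0.26 in these comparisons. Of 31 partner and neighbouring receptor genes, 20 were tested in bone on day 7, where 3 rose and 6 fell, Csf1r, the macrophage growth factor receptor, by -1.09 (adjusted p = 1.05e-05). In muscle on day 7, 5 of 23 tested were called, all higher, among them Il12rb1 (4.94), Csf2rb2 (0.91) and Csf2rb (0.75), where Csf2rb2 and Csf2rb encode beta chains of the GM-CSF and interleukin 3 receptors.

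Between days, the genes changed most in muscle. Each comparison sets the later day first, and its count covers both directions. In depleted muscle, 7 of 10 changed between days 7 and 4, beside 19.4% of all genes, and in control muscle 3 of 10, beside 7.24%. Socs2 averaged 74.5 ± 4.84 CPM on day 7 and 10.2 ± 4.91 CPM on day 4 in depleted muscle (SD, n = 3 each; log2 change 2.86, SE 0.25, adjusted p = 4.56e-07). In control muscle it averaged 29.2 ± 3.25 CPM on day 7 and 12.4 ± 2.08 CPM on day 4 (log2 change 1.24, SE 0.25, adjusted p = 0.0042). Cish rose by 2.86 in depleted muscle (SE 0.33, adjusted p = 1.21e-05), with means of 74.7 ± 17.2 CPM on day 7 and 10.3 ± 6.85 CPM on day 4 (SD, n = 3 each), and was not called in control muscle (log2 change 1.09, SE 0.35, adjusted p = 0.0684). Socs1 rose in depleted muscle (log2 change 1.53, adjusted p = 0.00588; 2.34 without the first depleted library of day 4). Socs3 rose in both arms, by 0.65 in depleted muscle (adjusted p = 0.00644) and 0.62 in control muscle (adjusted p = 0.0206; not called without the second or the third control of day 4 or the third of day 7). Il4ra fell in both, by 0.72 in depleted (adjusted p = 0.000999) and 0.85 in control muscle (adjusted p = 0.000806), and Il10ra and Il10rb fell in depleted muscle by 0.82 and 0.96. In control muscle, further calls appeared when 1 library was left out: Socs1 (adjusted p = 0.0226) and Cish (adjusted p = 0.0139) without the first depleted library of day 4, Cish without the second (adjusted p = 0.0323), Ifngr2 without the second control of day 7 (adjusted p = 0.0279) and Il10ra without the third (adjusted p = 0.0334).

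In depleted bone, 2 of 10 changed between days 10 and 7, beside 12.2% of all genes: Socs2 rose by 1.31 (adjusted p = 0.00393) and Socs3 by 0.97 (adjusted p = 0.00406). Without the fifth depleted library of day 7, Il10ra fell as well (log2 change -0.67, adjusted p = 0.0347), and without the fifth control Cish rose (1.31, adjusted p = 0.0189). In control bone 0 changed, beside 0.0393% of all genes; 3 had an unadjusted p below 0.05, and DESeq2 and limma-voom called 0. In depleted skin 0 changed between days 7 and 4, beside 2.62%, where 3 had an unadjusted p below 0.05, DESeq2 called 1 and limma-voom 0. In control skin 0 changed, beside 2.27%, where 4 had an unadjusted p below 0.05 and DESeq2 and limma-voom called 0. Without the third depleted skin library of day 7, Socs3 (log2 change -0.94, adjusted p = 0.00171) and Il4ra (-0.71, adjusted p = 0.0257) fell in depleted skin, and Cish rose in control skin (0.91, adjusted p = 0.0159). Socs3 also fell in depleted skin without the first depleted library of day 4 (-0.75, adjusted p = 0.0488). In depleted heart 2 of 10 changed, beside 27.3%, and in control heart 3, beside 31.8%. Il10ra rose in both, by 0.56 in depleted (adjusted p = 0.00175) and 0.97 in control heart (adjusted p = 3.93e-06), Il4ra fell in both, by 0.51 (adjusted p = 0.00375) and 0.69 (adjusted p = 0.0002), and Ifngr1 rose by 0.38 in control heart (adjusted p = 0.0241, lost without any of 3 control libraries). Without the library FDG3 of day 7, Socs2 (1.22, adjusted p = 0.0389) and Il13ra1 (0.43, adjusted p = 0.0447) rose in depleted heart. Ribosomal protein genes took 2.29% of counts in control heart on day 7 and 6.67% on day 4.

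Whether depletion acted differently between days and tissues was tested on the difference of the changes itself. Between days, 1 of 10 genes differed in muscle, beside 2.41% of all genes; 0 in heart, beside 4.09%, with 2 at an unadjusted p below 0.05; 0 in skin, beside 0.848%, with 1; and 0 in bone, beside 0%, with 1. DESeq2 and limma-voom called 0 of the 10 in those 3 tissues, and in bone 1591 of all genes had an unadjusted p below 0.05, while DESeq2 called 223 and limma-voom 0. The gene in muscle was Socs2, whose depletion change was higher on day 7 than on day 4 by 1.61 (SE 0.35, adjusted p = 0.0201). That call was lost without the third depleted or the second control library of day 4, or the second or the third control of day 7 (adjusted p between 0.0522 and 0.066). The like difference of Cish was 1.77 (SE 0.48, adjusted p = 0.0609), and 2.45 without the first depleted library of day 4 (adjusted p = 0.0038). It also passed without the first depleted library of day 7 (1.95, adjusted p = 0.0321). DESeq2 called it (1.81, adjusted p = 0.0138), and so did edgeR with no filter on low counts (1.78, adjusted p = 9.89e-06). In muscle DESeq2 called 2 of the 10 and limma-voom 1. Without the first depleted library of day 4, Socs1 passed as well (1.43, adjusted p = 0.0413).

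Between tissues on day 7, in 1 fit of bone, muscle and skin, 2 of 10 differed for bone minus muscle, beside 8.28% of all genes, and 3 for bone minus skin, beside 9.37%. Socs2 responded less in bone than in muscle, by -1.88 (SE 0.39, adjusted p = 0.00127), and than in skin, by -2.15 (SE 0.37, adjusted p = 9.1e-05). Socs3 differed in the same direction, by -1.15 against muscle (SE 0.29, adjusted p = 0.00752) and -0.91 against skin (SE 0.27, adjusted p = 0.0223). The difference of Socs3 between bone and skin was -0.58 without the third depleted skin library (adjusted p = 0.116), and also missed the threshold without the fifth depleted or first control bone library or the second control skin library. Il10rb differed between bone and skin by -0.72 (SE 0.23, adjusted p = 0.0323), a call that was lost when any of 8 libraries was left out (adjusted p between 0.0511 and 0.101). For muscle minus skin, 0 differed on day 7, beside 2.78%, with 0 at an unadjusted p below 0.05 and 0 by DESeq2 and limma-voom. On day 4, 0 differed, beside 0.265%, with 2 at an unadjusted p below 0.05, 1 by DESeq2 and 0 by limma-voom. There Socs2 passed the edgeR test without the first depleted muscle library of day 4 (-2.06, adjusted p = 0.0282). It also passed without the first depleted skin library of that day (-1.89, adjusted p = 0.00945). With no filter on low counts, Socs2 (-1.74, adjusted p = 0.00013) and Cish (-2.01, adjusted p = 4.13e-06) both passed. These differences share libraries with each other.

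Among control libraries, the tissues themselves differed in the feedback genes. For bone against muscle on day 7, 5 of 10 were called, beside 13.6% of all genes, and for bone against skin 5, beside 25.6%. Socs3 averaged 86.2 ± 21.8 CPM in control bone (SD, n = 5), 171 ± 11.5 CPM in muscle (n = 3) and 218 ± 28.5 CPM in skin (n = 4). It was lower in bone than in muscle (log2 change -0.98, SE 0.20, adjusted p = 0.000418) and than in skin (-1.33, SE 0.19, adjusted p = 5.21e-07), and muscle did not differ from skin beyond the spread (-0.35, SE 0.21, adjusted p = 0.305). Cish averaged 6.61 ± 4.66 CPM in control bone (SD, n = 5), 18.2 ± 4.27 CPM in muscle (n = 3) and 29.3 ± 4.91 CPM in skin (n = 4). It was lower in bone than in skin (-2.06, SE 0.40, adjusted p = 0.000127) and than in muscle (-1.37, SE 0.43, adjusted p = 0.0284, lost without any of 4 libraries), and muscle against skin was not called (adjusted p = 0.306). Socs2 was lower in control bone by -1.12 against muscle (adjusted p = 0.00379) and -0.99 against skin (adjusted p = 0.00377; -0.70 without the second control skin library, adjusted p = 0.0594).

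Of the receptor genes, Il10ra was lower in control bone by -0.68 against muscle (adjusted p = 0.0011) and -0.39 against skin (adjusted p = 0.0372, lost without any of 6 libraries). Il4ra was lower in control bone than in skin by -0.91 (adjusted p = 1.32e-05). Il13ra1 was higher in control bone than in muscle by 0.57 (adjusted p = 0.0311, lost without any of 4 libraries). Between control muscle and skin, 1 of 10 was called on day 7, beside 11.9% of all genes, and 2 on day 4, beside 12.3%. These were Il13ra1 on day 7 (-0.67, adjusted p = 0.0156, and 0.133 without the first muscle control), Socs3 on day 4 (-1.14, adjusted p = 0.000203) and Il10ra on day 4 (0.85, adjusted p = 0.00013). Il4ra in control muscle against skin on day 7 missed the threshold (-0.50, adjusted p = 0.0552) and passed it when any of 6 libraries of the shared fit was left out. In the same way Il4ra passed for bone against muscle without the fourth bone control (-0.52, adjusted p = 0.0318), and Ifngr2 for muscle against skin on day 4 without the second muscle control of day 7 (0.46, adjusted p = 0.0484). Heart is in another table and was not set against the other tissues.

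Across the 12 group means of bone, muscle and skin, the genes most like each of the 10 were found among 9699 genes by Pearson's r of log2 CPM, as a description. Cish was most like Il4 (r = 0.932) and Pdcd1lg2 (0.907), Socs2 like Il4i1 (0.948) and H2-M2 (0.947), Socs1 like Smpdl3b and Tarm1 (both 0.918), and Socs3 like Klf6 (0.969). Klf6 is 1 of the 22 early response and dissociation genes counted above. Il4ra was most like Peak1 (0.981), Il10ra like Clcn4 (0.984) and Sirpa (0.983), and Il10rb like its overlapping gene Gm21970 (0.988). Ifngr1 was most like Thap3 (0.911), Ifngr2 like Cnot6l (0.882) and Il13ra1 like Cav2 (0.886). Among the 10, Socs2 and Cish (r = 0.879), Socs1 and Cish (0.846) and Il10ra and Il10rb (0.889) were alike, while Socs1 and Ifngr2 ran opposite (-0.826). The group means share tissues and libraries.

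**Figure D5:**
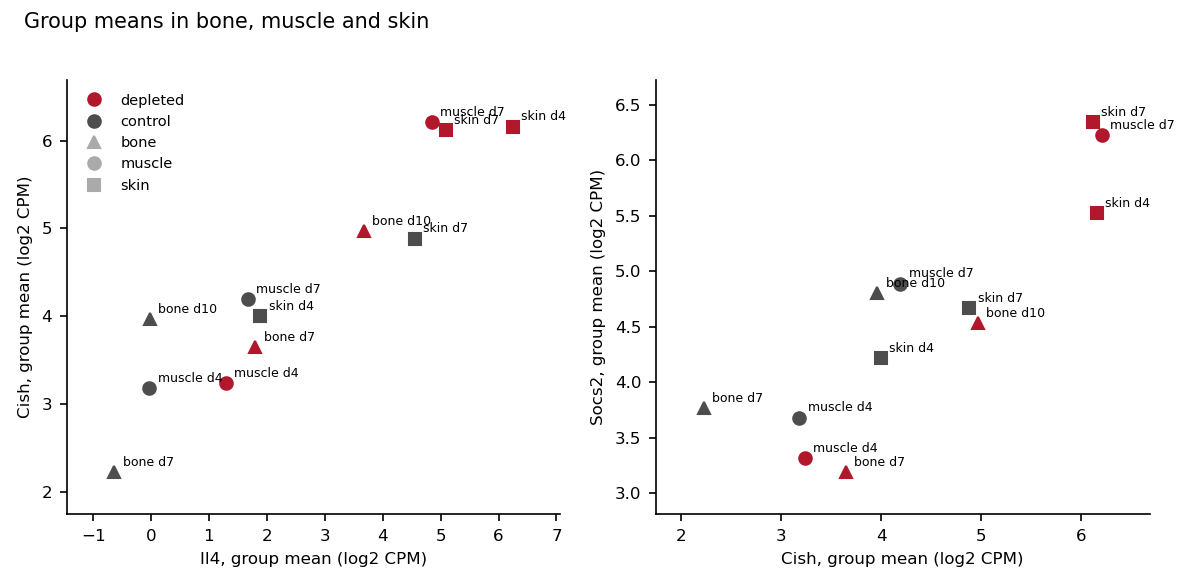
Group means (log2 CPM) of Cish against Il4 and of Socs2 against Cish in the 12 groups of bone, muscle and skin; colour gives the arm and shape the tissue. Depleted muscle on day 7 and depleted skin on both days lie at the top right of both panels.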

How the data were processed

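The authors deposited 2 gene tables of 3′ RNA-seq libraries made with an oligo-dT primer and unique molecular identifiers, per the labels' protocols. The heart table holds whole read counts, as deposited by the authors. The table of bone, muscle and skin holds estimated counts, as deposited by the authors, in which 19.4% of non-zero values lay over 0.01 from a whole number; they were rounded. STAR, featureCounts, Salmon (heart only) and limma are named without versions in the submitters' processing notes, with GRCm38 for heart and both GRCm38 and GRCm39 for the other table. Whether identifiers were collapsed, and whether counting used strand, is not given in the sources used here, so reads of antisense or overlapping genes may be shared. Socs1 had fractional values in 1 library, Socs2 in 9 and Il10rb in all 44.

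Counts were fitted per tissue, 4 groups together, with edgeR 4.0.16 (TMM, filterByExpr, quasi-likelihood with robust dispersion) in R 4.3.3, and p-values were adjusted by Benjamini-Hochberg over 11339 heart, 12709 bone, 12907 muscle or 12616 skin genes; a call is an adjusted p below 0.05. Tissues were compared in 1 fit of 12 groups and 14340 genes. A standard error is the log2 change divided by the square root of F. For correlations, log2 CPM used a prior count of 2. Library totals of 2318268 to 9788811 counts limit the precision of genes at a few CPM, and limits for 0 counts cover counting error only. Replicates differed by more than sampling noise (chi-square per degree of freedom 5.466 to 28.803). Library columns without a day in the heart table were taken as day 7, from the labels of the remaining samples. Named genes are the 10 in every comparison, the ligands Ifng, Il4, Il13 and Il10, up to 3 called genes of smallest adjusted p from each pathway list, up to 2 genes of each marker list, and the genes most alike over group means among those reaching 10 CPM. The 10 genes and all lists were chosen with earlier results of these data known. Alternatives were DESeq2 1.42.0, limma-voom (limma 3.58.1), RLE scaling, no filter, the compared groups alone, a replicate block, Rn18s-rs5 as a covariate in bone, each library left out, and Il10rb with Gm21970 added, the last chosen after seeing the data. The scripts were tested on simulated counts. Figures used matplotlib 3.10.9. Calls among the STAT genes themselves are not reported here.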

Additional observations from a re-analysis of the deposited data

Results flagged for a closer look

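In 2 of 60 pairs of gene and group with 4 or 5 libraries, 1 library stood far from the others by Dixon's criterion, which chance meets in about 1 of 20 groups. Both belong to the third depleted skin library of day 7, where Socs3 was at 263 CPM and Ifngr1 at 382 CPM, the highest of their group.

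Of 80 differences between depletion changes that were tested, 6 passed the threshold of the edgeR test (adjusted p below 0.05). The change of Socs2 differed between day 7 and day 4 of muscle by 1.61 (adjusted p = 0.0201). On day 7, the change of Socs2 in bone differed from that in muscle by -1.88 (adjusted p = 0.00127) and from that in skin by -2.15 (adjusted p = 9.1e-05). The change of Socs3 in bone differed from that in muscle by -1.15 (adjusted p = 0.00752) and from that in skin by -0.91 (adjusted p = 0.0223), and the change of Il10rb in bone differed from that in skin by -0.72 (adjusted p = 0.0323).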

How the results depend on the processing

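Of the 23 calls of depletion against control, 13 passed in every alternative run: Socs3, Ifngr1, Il4ra and Il10rb in bone on day 7, and Socs1, Socs2 and Cish in muscle on day 7 and in skin on days 4 and 7. The other 10 were lost in at least 1 alternative. Over single values and alternatives, 8031 of 8210 stayed on their side of the threshold, 102 lost it, 76 gained it and 1 turned: Il10ra in control bone against skin was 0.02 with the replicate block (adjusted p = 0.983), against -0.39 without it. Deviations of same-numbered libraries correlated between -0.12 and 0.14, 2 of 22 pairs over 0.1, and 11 of 22 libraries were closest to their own number, which is a hint from the data only; the numbers were not taken to pair libraries. Heart columns carry numbers other than those of the labels, so no block was fitted there. With the block, the genes called between days were 9 rather than 17 and those between tissues 4 rather than 13. In that fit, comparisons between days and between tissues set the fitted levels of the first-numbered libraries against each other, not the group averages. These counts and the turned value of Il10ra therefore cannot show how the results depend on pairing.

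The count of the 10 called in heart on day 4 was 1 with RLE scaling and 1 with limma-voom, rather than 2. In heart on day 7 it was 2 with no filter and 1 with the day 7 libraries alone, rather than 0, and in muscle on day 4 it was 1 with no filter, rather than 0. With no filter, 26 were called between days. With Rn18s-rs5 as a covariate, 4 were called in bone on day 7, rather than 7, and 0 on day 10, rather than 2. On day 10 the share of Rn18s-rs5 did not overlap between the arms, so that fit can hardly tell it from depletion there. Leaving out 1 library at a time gave 0 to 3 calls in heart on day 4, 0 to 1 in heart on day 7, 7 in bone on day 7, 2 to 3 in bone on day 10, 0 in muscle on day 4, 3 to 5 in muscle on day 7, 3 in skin on day 4, 3 to 6 in skin on day 7, 16 to 20 between days, 4 to 9 among differences and 10 to 14 between tissues. The cause of these shifts was not tested. Ifng, Il4 in control bone and Il13 in control skin on day 4 lie near the limit that 3 counts set at this depth. The lowest control value of Cish in bone on day 7, at 0, lies below it.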

Other observations

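The interleukin 6 gene Il6, whose receptor Socs3 restrains, rose in bone on day 7 by 1.52 (SE 0.26, adjusted p = 0.000216), where Socs3 fell, and on day 10 by 2.36 (SE 0.33, adjusted p = 0.000131). In skin on day 4, Il6 rose by 3.15 (SE 0.56, adjusted p = 0.00694) and Csf2, the GM-CSF gene, by 6.14 (SE 0.87, adjusted p = 0.000314). Il15ra, a receptor gene that interferon induces, rose in heart on day 4 by 1.20 and on day 7 by 1.34, and in skin by 1.10 on day 4 and 1.02 on day 7. Il5ra, the receptor gene of eosinophils, fell in skin on day 7 by 4.68 on the log2 scale. Ptpn2, a phosphatase gene that acts on Janus kinases and STATs, rose in muscle on day 7 by 0.69 (adjusted p = 0.0218) and in skin on day 4 by 0.62. All are changes of depleted against control libraries by the edgeR test, with p adjusted over all genes tested.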
